A study of Mus musculus with 5 samples.

Results

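The genes described here are the organic ion transporters of the mouse Slc22 and Slco families. They were chosen by symbol, as every gene named Slc22a or Slco with a number that had at least 1 unique molecular identifier (UMI, 1 captured RNA molecule) in the droplet libraries. Of 39 matching symbols, 34 had a UMI, 23 of them Slc22 and 11 Slco genes, out of 20576 genes with a UMI in the series. Slco6c1, Slco6d1, Slco1b2, Slc22a16 and Slc22a27 had 0 UMIs. The kidneys came from C57/BL6 mice aged 8 weeks in a model in which the ureter of 1 kidney is obstructed (unilateral ureteric obstruction, UUO) and the obstruction can be reversed. There were 4 droplet libraries: sham surgery at day 0, UUO at day 2, UUO at day 7, and reversed UUO, taken 7 days after the reversal on experimental day 14. The tissue was dissociated on ice, and DAPI served as the viability dye in the sort. Each library pooled 3 mice and was the sole library of its time point, so no replicate spread exists, no test was run, and every interval below covers counting error only. A Smart-seq2 sample of 768 wells held all time points mixed.

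Slc22 proteins carry small charged molecules across cell membranes: the OATs carry organic anions, the OCTs organic cations, the OCTNs carnitine and other zwitterions, and URAT1 takes up urate. Slco proteins, the OATPs, carry larger amphipathic anions such as bile acids, steroid conjugates, thyroid hormones and prostaglandins. In the kidney both families are best known from the proximal tubule, where OAT1 and OAT3 on the blood side take up drugs and metabolites that other transporters then release into the urine. The first segments of the proximal tubule (S1 and S2) and the last, straight one (S3) are known to differ in their transporters.

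Promoter sequences of 3 genes are shown here because the values below turn on them: Slc22a12 and Slco1a6 were the most abundant members of their families in sham proximal tubule cells, and Slco1a1, chosen after its values were seen, differed most between tubule segments. Each is the 250 bases before a RefSeq start site on GRCm38.p6, 5′ to 3′ on the gene's own strand. All lie on the minus strand, Slc22a12 at chr19:6543071-6543320, Slco1a6 at chr6:142186150-142186399 and Slco1a1 at chr6:141946963-141947212. Capitals mark matches to CAAAGTCCA, a motif of the tubule and liver regulator HNF4, with at most 1 mismatch on either strand.
Slc22a12: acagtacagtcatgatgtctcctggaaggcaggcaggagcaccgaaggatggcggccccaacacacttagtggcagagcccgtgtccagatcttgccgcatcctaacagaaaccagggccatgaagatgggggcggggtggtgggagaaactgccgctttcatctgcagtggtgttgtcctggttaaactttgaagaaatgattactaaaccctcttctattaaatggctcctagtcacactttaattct
Slco1a6: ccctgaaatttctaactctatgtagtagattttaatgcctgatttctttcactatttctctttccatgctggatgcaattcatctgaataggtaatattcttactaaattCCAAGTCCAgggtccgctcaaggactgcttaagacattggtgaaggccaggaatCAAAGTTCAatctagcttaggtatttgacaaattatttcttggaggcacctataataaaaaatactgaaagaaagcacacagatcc
Slco1a1: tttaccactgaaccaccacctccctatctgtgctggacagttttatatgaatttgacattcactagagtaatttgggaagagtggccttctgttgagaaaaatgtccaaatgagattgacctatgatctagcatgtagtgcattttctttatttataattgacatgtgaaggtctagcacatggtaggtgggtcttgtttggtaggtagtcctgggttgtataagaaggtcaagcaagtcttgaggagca
The Slco1a6 window held 2 such matches, starting 140 and 86 bases before the start site, and the other 2 windows held none. Of the 34 members, 29 had a RefSeq window of 300 bases, 250 before to 50 after the start. The HNF4 letters were found in 8 of the 29 (27.6%), against 9.64% of 27025 genes with such windows. These 8 were Slc22a3, Slc22a19, Slc22a20, Slc22a22, Slc22a28, Slc22a29, Slc22a30 and Slco1a6. A match describes the letters in a window and is no evidence of binding. Slc22a28, Slc22a29 and Slc22a30 lie near each other on chromosome 19, and Slc22a28 shares short stretches near its 3′ end with each of the others. Their windows may therefore not be independent examples, but the windows were not compared with each other.

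The matrices held 2739 to 5938 barcodes and 18649637 to 30462683 UMIs per library, and 146 barcodes occurred in more than 1 library. Xist had 1 to 6 UMIs per library, and Ddx3y, Eif2s3y, Kdm5d and Uty were found in all 4. The labels do not give the sex. Cells were clustered without the transporters and named by marker genes, so "-like" means resembling a type by its markers. Proximal tubule-like cells numbered 3018 in sham, 630 and 260 on days 2 and 7, and 1114 after reversal. Their mix of clusters was uneven: a cluster led by the fibrinogen genes Fgg, Fga and Fgb, with 6 of the 12 proximal tubule markers enriched and none of them among its 10 leading genes, held 0.166% of these cells in sham, 71.3% and 21.5% on days 2 and 7, and 6.28% after reversal. Values below are UMIs per 1000000 UMIs of the cell class (CPM), given in the order sham, day 2, day 7 and reversed where 4 stand together. Because UMIs were read from 3′ ends, CPM is a share of RNA molecules and needs no scaling by gene length.

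In proximal tubule-like cells the transporters together made up 2322, 1321, 1823 and 2399 CPM. In the class as a whole the sum was lower on day 2 and close to sham after reversal. In the Slc5a2-gated cells of this class, described below, it was lowest on day 7, at 1044 CPM. In CPM the largest day 2 difference in the class was that of Slc22a8 (OAT3), followed by Slc22a18, Slc22a12 and Slc22a6 (OAT1). A gene was called when its CPM differed at least 2-fold on the log2 scale with a pseudocount of 1 CPM, and compared when it had at least 30 UMIs over both libraries. For day 2 against sham 19 members were compared, 5 were called lower and 0 higher. The 5 became 9 with CPM of non-mitochondrial UMIs and 10 with trimmed-mean (TMM) factors, and 2 with a pseudocount of 10 CPM. Over deposited barcodes of every cell class, the median share of mitochondrial UMIs was 40.6%, 16.2%, 3.0% and 14.0%. Within the proximal tubule-like class the medians differed from these. They were 36.2%, 24.9%, 16.2% and 32.7% in the Slc5a2-gated cells. In the Slc7a13-gated cells, also described below and 10 in number on day 2, they were 31.2%, 16.4%, 20.4% and 24.9%. Among all 9981 genes compared, 1.62% were called lower and 9.85% higher under the main scaling. These shares belong to the 5 and are no background for the 9, 10 and 2, for which the share of all genes is not given. The median log2 ratio was -0.64 over the 19 members, 16 of them below 0, and 0.29 over all genes. The other members had too few UMIs to be compared. Over the same libraries the 12 proximal tubule markers summed to 27734, 12582, 20544 and 27057 CPM within these cells, and the 9 injured tubule markers to 47.8, 729, 1336 and 229 CPM. The part of the cluster mix and of these marker levels in the results below was not tested beyond the values given.

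**Figure D1:**
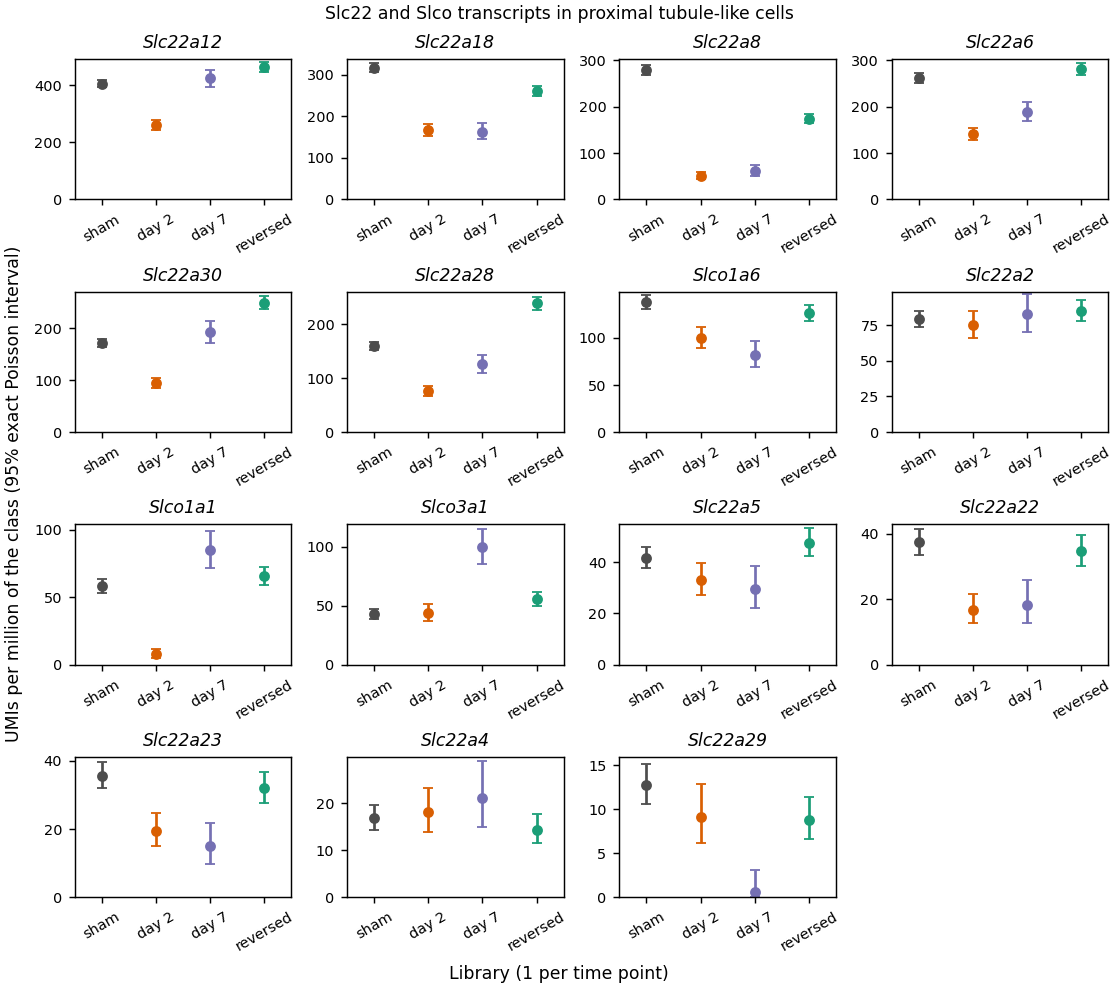
Level of 15 transporters in proximal tubule-like cells (vertical axis, CPM of the class, each panel on its own scale from 0) by library (horizontal axis); points are the 4 libraries and bars the exact Poisson intervals. Slc22a8 went from 279 CPM in sham to 50.4 and 61.1 in obstruction and 174 after reversal, while Slc22a2 stayed between 75.3 and 85.3.

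Among the organic anion transporters, Slc22a8 (chr19:8591254-8611835, plus strand), which encodes OAT3, had 2675, 172, 110 and 1107 UMIs. This was 279, 50.4, 61.1 and 174 CPM, low in both obstructed libraries and between them and sham after reversal. The log2 ratio was -2.45 on day 2 against sham (95% counting interval -2.67 to -2.23), 0.27 on day 7 against day 2 (-0.08 to 0.62), 1.50 for reversed against day 7 (1.22 to 1.79) and -0.68 for reversed against sham (-0.78 to -0.58). It was also low within single clusters. In the cluster led by Snhg11 and Mlxipl, present in all libraries, it was 335, 43.1, 45.0 and 149 CPM, and without the fibrinogen cluster the day 2 ratio was -2.25. Finer clustering left 64 proximal tubule-like cells on day 2, without the fibrinogen cluster, and gave a ratio of -1.01.

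Slc22a6, the neighbouring gene (chr19:8618039-8628299, plus strand), encodes OAT1. It had 2503, 479, 340 and 1785 UMIs, or 261, 140, 189 and 281 CPM in the same order. Its day 2 ratio of -0.89 (-1.04 to -0.75) was smaller in size than that of Slc22a8 and not past 2-fold, and reversed against sham was at 0.10 (0.01 to 0.19). Scaling to non-mitochondrial UMIs gave -1.10 and TMM scaling -1.29, both past 2-fold, while finer clustering gave 0.0011. Slc22a7, which encodes OAT2 (chr17:46432183-46438457, minus strand), had 62, 0, 13 and 57 UMIs. The sham level of 6.48 CPM was at least 7.36-fold higher than 3 UMIs would be on day 2. At 7.22 CPM on day 7 and 8.97 after reversal it was near its sham level. In the Slc7a13-gated cells described below, 10 of them on day 2, Slc22a7 had 41 UMIs in sham and 0 on day 2. The sham level of 35.5 CPM there was 0.918 times what 3 UMIs would be on day 2, so no decrease was detectable within that gate. Slc22a22, which encodes a prostaglandin transporter named OAT-PG, was at 37.4, 16.7, 18.3 and 34.6 CPM, called lower on day 2 at -1.12 (-1.52 to -0.73). This call and its direction depended on the clusters counted: finer clustering gave 0.26.

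Slc22a12, which encodes the urate transporter URAT1 (chr19:6535845-6543032, minus strand), was the most abundant member, with 3885, 890, 764 and 2943 UMIs. Its levels of 406, 261, 424 and 463 CPM were lowest on day 2, at a log2 ratio of -0.64 (-0.74 to -0.53) that was not past 2-fold. In the Slc5a2-gated cells described below it was at 281, 199 and 196 CPM in sham and on days 2 and 7. Day 7 against day 2 was at -0.02 (-0.30 to 0.25) there. In the Slc7a13-gated cells, 10 of them on day 2, that ratio was 0.48 (0.05 to 0.94). Slc22a18, a transporter encoded in an imprinted region, was at 317, 167, 163 and 261 CPM, low in both obstructed libraries. Its day 2 ratio was -0.92 (-1.05 to -0.79), and its level after reversal was below sham at -0.28 (-0.37 to -0.19).

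Slc22a2, which encodes the organic cation transporter OCT2, had 760, 257, 149 and 542 UMIs, or 79.4, 75.3, 82.7 and 85.3 CPM. Its day 2 ratio of -0.07 had an interval of -0.28 to 0.13, which included 0 and left no room for a 2-fold difference by counting error. In the Slc5a2-gated cells described below Slc22a2 was at 58.1, 65.1, 42.0 and 58.6 CPM. Day 7 against day 2 was at -0.62 (-1.20 to -0.07) there. In the Slc7a13-gated cells, 10 of them on day 2, that ratio was 0.18 (-0.72 to 1.19). The related Slc22a3, which encodes OCT3, had 12 UMIs over all 4 libraries.

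Of the carnitine and zwitterion transporters, Slc22a5, which encodes the carnitine transporter OCTN2, was at 41.6, 33.1, 29.4 and 47.5 CPM. Slc22a4, which encodes the ergothioneine transporter OCTN1, was at 16.8, 18.2, 21.1 and 14.3 CPM. Neither was called in any of the 4 comparisons. Slc22a21 had 20, 5, 5 and 15 UMIs. In the annotation's transcripts, Slc22a21 and Slc22a5 shared 87.0% of their 31-base words over the last 400 bases, so UMIs of these neighbours on chromosome 11 could be assigned to either or dropped, and both counts are uncertain. Slc22a13 and Slc22a14, with 53 and 2 UMIs over the series, overlap on the same strand of chromosome 9 and are uncertain for that reason.

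Slc22a28, Slc22a29 and Slc22a30 belong to a group of OAT-like genes known from rodents, on the minus strand of chromosome 19 (chr19:8062209-8131982, chr19:8160165-8218900 and chr19:8335371-8405111). Slc22a30 was at 171, 93.8, 192 and 248 CPM and Slc22a28 at 160, 76.2, 125 and 239 CPM. In the whole class both were lowest on day 2 and highest after reversal, where they exceeded sham by log2 ratios of 0.53 (0.43 to 0.63) and 0.58 (0.48 to 0.68). The median of all genes in that comparison was 0.27. In the Slc5a2-gated cells described below neither was higher on day 7 than on day 2. There Slc22a30 was at 87.8 and 84.0 CPM on days 2 and 7 and Slc22a28 at 94.5 and 75.0. In the Slc7a13-gated cells, 10 of them on day 2, both were higher on day 7, at 1.18 (0.42 to 2.05) and 1.36 (0.33 to 2.59). In the whole class Slc22a28 was called lower on day 2 at -1.06 (-1.25 to -0.87). The call was lost where the cells counted changed: the ratio was 0.0017 without the fibrinogen cluster and 0.40 with finer clustering. In the Snhg11 cluster alone, however, Slc22a28 was at 468 CPM in sham and 170 on day 2. Slc22a29 followed another course, with 122, 31, 1 and 56 UMIs, or 12.7, 9.09, 0.56 and 8.81 CPM. It was low on day 7 alone, at a log2 ratio of -2.70 against day 2 (-3.35 to -1.19).

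Among the Slco genes, Slco1a6, an OATP of rodents, was at 138, 99.96, 82.2 and 126 CPM and was called in none of the 4 comparisons of libraries in this class. Slco1a1, an OATP known to be more abundant in male than in female mouse kidney (chr6:141907282-141946962, minus strand), had 558, 27, 153 and 417 UMIs. Its levels of 58.3, 7.92, 85.0 and 65.6 CPM were low on day 2 alone. The log2 ratio was -2.73 on day 2 against sham (-3.27 to -2.23) and 3.27 on day 7 against day 2 (2.72 to 3.84). Slco3a1, a widely expressed OATP, was at 43.0, 43.7, 99.4 and 55.4 CPM, higher on day 7 than on day 2 by 1.17 (0.85 to 1.49).

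Day 7 against day 2 gave 3 members called higher, Slco1a1, Slco3a1 and Slc22a30, and 1 called lower, Slc22a29, of 18 compared (background 11.4% higher and 1.4% lower of 9118 genes). In the class 11 of the 18 were above 0, at a median of 0.17 against 0.30 over all genes. Within the Slc5a2 gate described below, by contrast, 13 of 15 members compared were below 0, at a median of -0.33. The Slc22a30 ratio of 1.02 was 0.10 without the fibrinogen cluster and -0.06 in Slc5a2-positive cells alone. Reversed against day 7 gave 3 called higher, Slc22a29 at 2.66, Slc22a8 at 1.50 and Slc22a23 at 1.04, and 2 called lower, Slc22a15 at -1.91 and Slco2a1 at -1.13, of 20 compared. The background there was 2.07% higher and 11.4% lower of 10094 genes, and the median was 0.40 over the members and -0.34 over all genes. The Slc22a15 ratio, from 22 and 16 UMIs, was 1.25 without doublet removal and 1.18 with finer clustering, so no direction is given for it. Of 12 alternative settings, the day 7 against day 2 calls held, with 2-fold and the UMI minimum both met, in 10 for Slco1a1, 9 for Slco3a1, 6 for Slc22a29 and 5 for Slc22a30. Those of reversed against day 7 held in 10 for Slc22a8, 9 for Slc22a29, 8 for Slc22a23, 7 for Slc22a15 and 5 for Slco2a1. Reversed against sham gave 0 called in either direction of 21 compared, with background of 0.114% lower and 9.81% higher of 10561 genes. The median there was 0.10 over the members and 0.27 over all genes. The lowest of the 21 ratios was that of Slc22a8 at -0.68 and the highest that of Slco2b1 at 0.86, from 14 and 22 UMIs.

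**Figure D2:**
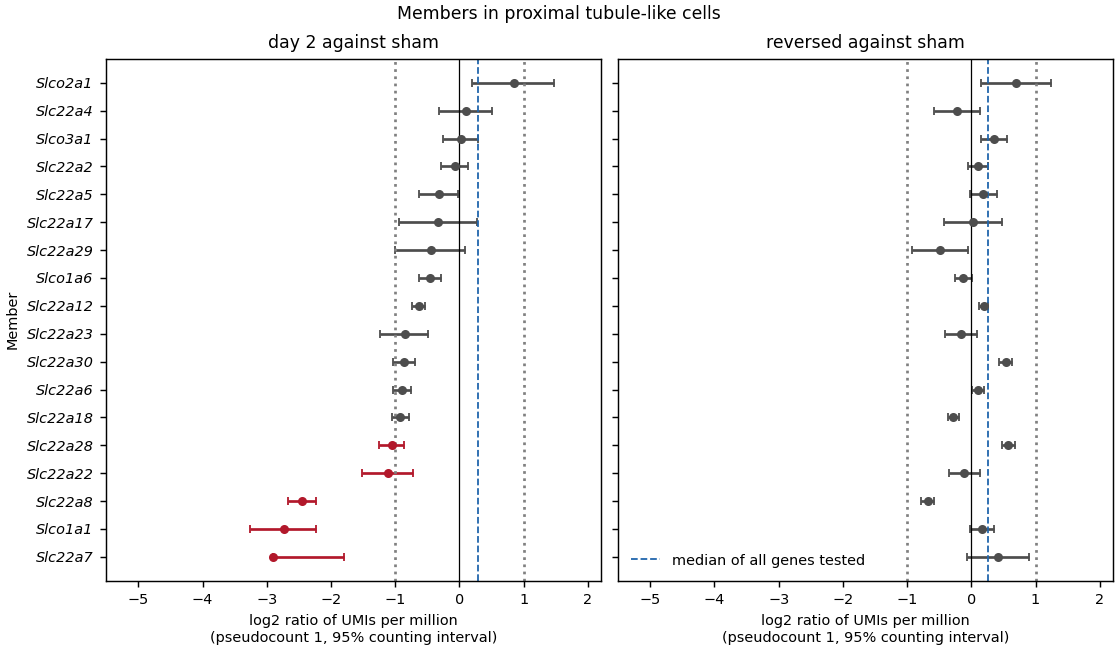
Log2 ratio of CPM in proximal tubule-like cells for 18 of the 19 members compared on day 2 (left, day 2 against sham; right, reversed against sham), with 95% counting intervals, dotted lines at 2-fold and a dashed line at the median of all genes. On day 2, 15 of 18 points lie below 0 and 5 (red) are past 2-fold; after reversal all 18 lie within 2-fold of sham. Slc22a7 had 0 UMIs on day 2, so its plotted ratio depends on the pseudocount.

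Phagocyte markers within the proximal tubule-like cells summed to 277, 1496, 7258 and 2295 CPM, with 17, 19, 20 and 20 of the 20 genes found. Slco3a1 and Slco2a1, transporters that were also found in phagocyte-like and endothelial-like cells, were highest in this class on day 7, at 99.4 and 16.7 CPM. How much of those levels came from RNA of other cells was not tested.

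The segments of the proximal tubule were separated by 2 genes that are not among the transporters. Cells with a UMI of Slc5a2, the glucose transporter SGLT2 of the early segments, and none of Slc7a13, an amino acid transporter of S3, formed the Slc5a2 gate. Cells with the reverse formed the Slc7a13 gate. The Slc5a2 gate held 1529, 319, 96 and 762 cells and the Slc7a13 gate 360, 10, 54 and 116, or 11.9%, 1.59%, 20.8% and 10.4% of proximal tubule-like cells. The other segment genes given here went with the gates in sham: Slc5a12, Slc7a7, Slc7a8 and Gatm of the early segments were at 233, 216, 228 and 2314 CPM in the Slc5a2 gate and at 20.8, 36.3, 34.6 and 436 in the other. Of the S3 side only Atp11a is given, at 44.5 and 433 CPM, so that side rests on a single gene beside Slc7a13. Gate genes were also found in cells that should lack them, with Slc5a2 in 11.6% of 69 sham phagocyte-like cells against 55.3% of proximal tubule-like cells (median depths 3093 and 2565 UMIs), and after reversal in 16.6% against 72.4% (6814 and 4545.5 UMIs). Slc7a13 was in 16.6% of sham proximal tubule-like cells, against 2.90% of phagocyte-like cells, 6.51% of 169 loop of Henle-like cells (median depth 3803 UMIs) and 3 of 26 T or NK-like cells (1832 UMIs). After reversal it was in 14.4% of proximal tubule-like cells, 2.76% of phagocyte-like and 1.42% of loop of Henle-like cells (median depth of the last 6193.5 UMIs).

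The transporters together made up 1885, 1212, 1044 and 2041 CPM in the Slc5a2 gate, lowest on day 7. In the Slc7a13 gate they made up 4181, 2639, 3596 and 4454 CPM, lowest on day 2, from 10 cells. In sham the sum was thus higher in the Slc7a13 gate. Of 18 compared, 9 were called higher in the Slc7a13 gate and 2 in the Slc5a2 gate, against a background of 4.73% and 6.14% of 8206 genes. The median was 0.93 over the members and 0.06 over all genes. Slco1a1 differed most, at 284 CPM (328 UMIs) against 6.17 CPM (34 UMIs), a log2 ratio of 5.31 (4.85 to 5.78). Slc22a7 was at 35.5 against 0.91 CPM, from 41 and 5 UMIs, a ratio of 4.26 (3.40 to 4.92). Both were low on the Slc5a2 side.

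The organic anion transporters OAT1 and OAT3 parted here. Slc22a6 was at 718 CPM in the Slc7a13 gate and 147 in the Slc5a2 gate, a ratio of 2.28 (2.14 to 2.42), while Slc22a8 was at 272 and 282 CPM, a ratio of -0.06. The other members called higher in the Slc7a13 gate were Slco3a1 (127 against 21.0 CPM), Slc22a2 (189 against 58.1), Slc22a30 (375 against 118), Slc22a12 (828 against 281), Slc22a22 (73.5 against 30.1) and Slco1a6 (243 against 109). On the Slc5a2 side lay Slc22a29, with 95 UMIs against 1 (-3.29, -4.17 to -1.61), and Slc22a23, an orphan transporter, at 40.8 against 14.7 CPM (-1.41, -2.16 to -0.74). Thus the neighbours Slc22a29 and Slc22a30 were on opposite sides.

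**Figure D3:**
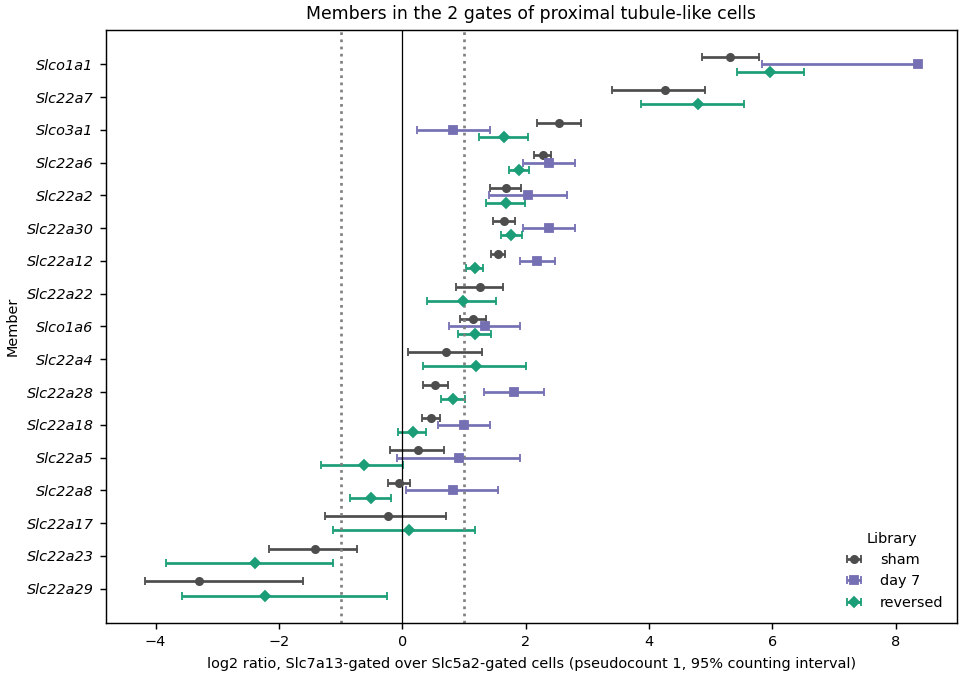
Log2 ratio of CPM in Slc7a13-gated over Slc5a2-gated proximal tubule-like cells for 17 transporters, with 95% counting intervals and dotted lines at 2-fold; colours and symbols are 3 libraries, and day 2 is not drawn because its Slc7a13 gate held 10 cells. Slco1a1 and Slc22a7 lie far to the right and Slc22a29 and Slc22a23 to the left in sham and after reversal; the day 7 point of Slco1a1 rests on 120 UMIs against 0 and depends on the pseudocount.

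The same sides were seen after reversal, where 9 of 19 were called higher in the Slc7a13 gate and 2 lower (background 4.34% and 7.83%). Slco1a1 was at 390 against 5.25 CPM and Slc22a7 at 57.3 against 1.09, while Slc22a23 was at -2.38 and Slc22a29 at -2.23. On day 7, 8 of 12 were called higher and 0 lower (background 4.68% and 14.5%). Slco1a1 then had 120 UMIs in the Slc7a13 gate and 0 in the Slc5a2 gate, at least 85.9-fold higher than 3 UMIs there. On day 2 the Slc7a13 gate held 10 cells, with 3 UMIs of Slco1a1 and 0 of Slc22a7, and 8 of 15 were called higher and 3 lower (background 12.3% and 18.8%). The 3 lower, Slc22a5, Slc22a23 and Slc22a29, had 1, 0 and 0 UMIs in that gate, with intervals that included 0, so no difference was detectable for them.

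Within the Slc5a2 gate, Slc22a8 was again low in obstruction, with 1555, 104, 35 and 858 UMIs, or 282, 53.7, 44.5 and 188 CPM. Its day 2 ratio there was -2.37 (-2.67 to -2.09). In the Slc7a13 gate, of 10 cells on day 2, it had 314, 13, 29 and 83 UMIs, or 272, 167, 79.2 and 132 CPM, below sham in each later library. There its day 2 ratio of -0.69 (-1.61 to 0.10) was not past 2-fold, and reversed against sham was past it at -1.03 (-1.40 to -0.68, background 1.52% lower). The difference between the gates was not tested. Slco1a1 had 34, 0, 0 and 24 UMIs in the Slc5a2 gate. Slc22a8 and Slco1a1 were the members called lower on day 2 in the Slc5a2 gate, of 18 compared (background 1.58%), and the median was -0.40 over the members and 0.27 over all genes. In the Slc7a13 gate 4 of 15 were past 2-fold lower by the ratio with a pseudocount (background 12.5%), and the median was -0.69 over the members, with the member at 0 UMIs set to its floor, and 0.09 over all genes. The 4 were Slco1a1, Slc22a28, Slc22a5 and Slc22a7. Slc22a5 had 1 UMI on day 2, with an interval of -5.19 to 0.67. Slc22a7 had 0 UMIs, and since 3 UMIs in these 10 cells would be 38.6 CPM against its 35.5 in sham, no decrease was detectable for it. In the Slc7a13 gate Slco1a1 was at 284, 38.6, 328 and 390 CPM, from 328, 3, 120 and 245 UMIs. Slco1a1 was thus at a lower CPM on day 2 than in sham in both gates, with 3 UMIs from 10 cells in the Slc7a13 gate. Its sham level in the Slc5a2 gate was 6.17 CPM, however. Sham endothelial-like and loop of Henle-like cells were at 8.79 and 9.30 CPM, from 5 and 6 UMIs. How much of the level in the Slc5a2 gate came from RNA of other cells was not tested. Slc22a6 in the Slc5a2 gate was at 147, 91.9, 85.2 and 190 CPM.

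For day 7 against day 2 in the Slc5a2 gate, 13 of 15 members compared were below 0. The median was -0.33 over the members and 0.33 over all genes. In the Slc7a13 gate, with 10 cells on day 2, 8 of 11 were above 0, at medians of 0.35 and -0.05. Reversed against day 7 was also compared within the Slc5a2 gate. Of 17 members compared, 9 were called higher and 1 lower, against a background of 3.24% and 15.7%, with a median of 1.07 over the members and -0.41 over all genes. They were Slc22a29 (51 UMIs against 0), Slc22a8 at 2.05, Slc22a22 at 1.97, Slc22a28 at 1.57, Slc22a30 at 1.16, Slc22a6 at 1.14, Slc22a23 at 1.13, Slc22a18 at 1.09 and Slc22a5 at 1.07. Slco2a1 was the member called lower, at -1.27. In the Slc7a13 gate, with 54 and 116 cells, the same comparison gave 1 called higher, Slc22a7 at 1.19, and 0 lower of 14 (background 2.05% and 4.88%), with a median of 0.25. Here too the difference between the gates was not tested. The fibrinogen cluster made up 3 of the 1529, 196 of the 319, 28 of the 96 and 52 of the 762 cells of the Slc5a2 gate, and 7 of the 10 cells of the Slc7a13 gate on day 2, so ratios within a gate also compare cells of different clusters.

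A list of 30 further genes of organic ion handling, made up of efflux pumps, partner transporters, scaffolds and regulators, was compared in the same cells. On day 2 against sham 1 of 23 was called lower and 1 higher, where 1.62% and 9.85% of all genes were. The 1 lower was Slc5a8, a transporter of lactate and other monocarboxylates, at -1.66. The 1 higher was Slc13a1, a sulfate transporter, at 2.89, from 160 to 1188 CPM. Both are among the 10 leading genes of clusters whose shares differed, Slc13a1 of the fibrinogen and Snhg11 clusters and Slc5a8 of a cluster that held 11.7% of these cells in sham and 0.635% on day 2. The median of the 23 was -0.12, with Abcc2 and Abcc4, efflux pumps that release organic anions, at 0.05 and 0.06 and Slc47a1, which releases organic cations, at -0.93. The regulator Hnf4a was at -0.34. Reversed against sham gave 0 called lower and 2 higher of 25, Slc10a2 at 1.07 and Abcc5 at 1.06, a share near the 9.81% of all genes called higher.

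Outside the proximal tubule, transporter UMIs could be RNA freed from broken tubule cells. The UMIs that such RNA would give were estimated from 12 proximal tubule genes found in each class, per library, and a transporter was called above that level at 3 times the estimate and at least 10 UMIs. In phagocyte-like cells the 12 genes were at 11.7%, 1.96%, 1.43% and 5.24% of their proximal tubule level. By this measure 7 of 22 transporters were called in phagocyte-like cells and 10 of 19 in endothelial-like cells. Among all genes 95.3% and 97% were called, so passing was the rule for genes in these classes. Tubule transporters not called lay on both sides of the estimate in phagocyte-like cells. Slc22a30 had 48 UMIs against 123 estimated, Slc22a28 had 46 against 103, Slc22a12 had 156 against 258 and Slc22a18 had 236 against 133, each with a counting interval that did not reach the estimate. Slc22a8, with 73 against 72.7, and Slc22a6, with 146 against 139, were close to it. Just under the threshold were Slc22a4 and Slc22a5, at 2.97 and 2.92 times the estimate. The estimate covers RNA from the proximal tubule and no other source.

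**Figure D4:**
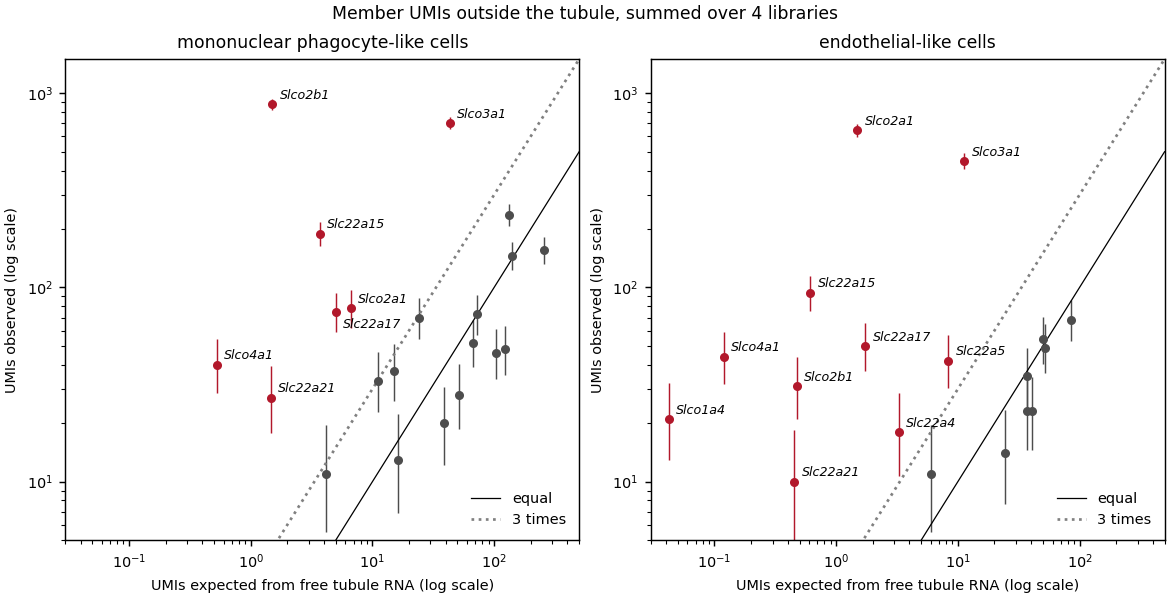
UMIs observed against UMIs estimated from free proximal tubule RNA, both on log scales and summed over 4 libraries, for transporters in phagocyte-like cells (left) and endothelial-like cells (right), with exact Poisson intervals. Points called above the estimate (red, named) include Slco2b1 at 879 against 1.50 in phagocyte-like cells and Slco2a1 at 647 against 1.49 in endothelial-like cells; the points not called lie on both sides of the line of equality.

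Slco2b1, an OATP that carries sulfated steroids (chr7:99657804-99711340, minus strand), was found mostly in phagocyte-like cells, which held 84.6% of its UMIs, against 4.0% in proximal tubule-like cells. A share of UMIs does not show the level in small classes. In the 7, 12, 80 and 81 fibroblast- or mural-like cells Slco2b1 had 0, 2, 16 and 22 UMIs, or 0, 23.0, 21.1 and 35.0 CPM. It was also above the free-RNA estimate there. In phagocyte-like cells it had 12, 74, 625 and 168 UMIs, or 46.8, 12.3, 39.2 and 34.5 CPM, lowest on day 2. The day 2 ratio was -1.84 (-2.71 to -0.86), from 69 sham cells, and that of day 7 against day 2 was 1.59 (1.26 to 1.93), both past 2-fold (background 8.42% lower and 6.98% higher). The clusters spanned a wider range than the libraries. A cluster led by Ms4a7, Ccl8 and C1qc was at 72.0 CPM (66.3 to 78.0), and a cluster led by Ccl4, Ccl3 and Cxcl10 at 61.5. Clusters led by Cd209a and by Xcr1, dendritic cell genes, were at 3.05 and 3.01 CPM. Within the Ms4a7 cluster it was 129, 67.9, 70.6 and 75.9 CPM, from 31, 20, 1129 and 214 cells. That cluster held 20 of the 535 phagocyte-like cells of day 2 and 31 of the 69 of sham.

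Slco3a1 and Slc22a15 were also above the estimate in phagocyte-like cells. Slco3a1 had 702 UMIs against 43.3. Slc22a15, a zwitterion transporter, had 189 against 3.68, with 0, 50, 103 and 36 UMIs by library. These came from 69, 535, 2275 and 615 cells, so they do not rank the libraries by level. Slco2a1 with 78 UMIs, Slc22a17 with 75, Slco4a1 with 40 and Slc22a21 with 27 completed the 7. On day 7 Slc22a15 was also found in neutrophil-like cells, at 45.2 CPM (24.1 to 77.3), and in T or NK-like cells, at 23.3 CPM (16.5 to 32.0).

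Slco2a1, the prostaglandin transporter (chr9:102988712-103096002, plus strand), was found in endothelial-like cells with 99, 117, 181 and 250 UMIs, or 174, 168, 92.0 and 150 CPM. Day 7 against day 2 was at -0.86 (-1.20 to -0.51) and reversed against day 7 at 0.70 (0.42 to 0.98), neither past 2-fold (background 2.52% lower and 1.84% higher). The endothelial clusters differed: one led by Ehd3, Plat and Emcn, genes of glomerular endothelium, was at 231 CPM, one led by Cldn5 and Sox17, genes of arterial endothelium, at 112, and one led by Plvap at 81.4. In the Ehd3 cluster the levels were 259, 399, 215 and 165 CPM. In the Plvap cluster they were 0, 66.2, 40.0 and 144 CPM, from 0, 10, 43 and 136 UMIs. Sham had 215 endothelial-like cells over all clusters, so the 0 does not show absence, and day 2 rests on 10 UMIs. By these values reversed was below day 7 in the Ehd3 cluster and above it in the Plvap cluster. Whether the courses differ was not tested. A cluster of 51 cells led by Sfrp2, Ptn and Adamts5, in which all 5 podocyte markers were enriched, was at 190.5, 1001 and 386 CPM in sham and on days 2 and 7, from 20, 121 and 36 UMIs in 26, 14 and 11 cells, and had 0 cells after reversal. Fibroblast- or mural-like cells were at 33.0, 80.4, 81.6 and 170.2 CPM, from 1, 7, 62 and 107 UMIs, and after reversal their level was thus not below that of endothelial-like cells. Slco3a1, at 87.9, 71.7, 97.1 and 93.4 CPM, varied little in endothelial-like cells. Slco1a4, an OATP known from the blood-brain barrier, had 21 UMIs there of 25 in all kept cells, 19 of them after reversal.

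In the distal nephron, 9 of 18 transporters were above the estimate in loop of Henle-like cells, 10 of 17 in collecting duct principal-like cells and 6 of 12 in intercalated-like cells (background 97.8%, 98.5% and 98.3%). Slco4a1, an OATP that carries thyroid hormone, was found mainly in these 3 classes. It had 15, 139, 65 and 58 UMIs in loop of Henle-like cells, or 23.2, 58.6, 40.0 and 39.8 CPM. The day 2 ratio of 1.30 (0.55 to 2.13) was past 2-fold (background 10.8% higher and 4.78% lower of 7610 genes). In intercalated-like cells it was at 11.0, 53.5, 52.9 and 18.7 CPM and in collecting duct principal-like cells at 0, 32.4, 30.8 and 17.7. Sham was thus lowest in each of the 3 classes, although its counts there were 15, 4 and 0 UMIs. In the cells resembling the distal convoluted tubule the order was the other way, at 36.7 CPM in sham and 19.0 after reversal, from 5 and 7 UMIs.

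Slco3a1 in loop of Henle-like cells was at 44.9, 77.6, 110 and 121 CPM, and reversed against sham was at 1.41 (0.84 to 2.01), past 2-fold (background 17.3% higher of 7031 genes). In collecting duct principal-like cells it was at 72.7, 114, 120 and 108 CPM. Slc22a17, reported as a receptor for the iron-carrying protein lipocalin-2, was highest in sham in these classes, at 37.2, 18.1, 19.7 and 23.3 CPM in loop of Henle-like and 58.8, 22.4, 13.7 and 18.6 in collecting duct principal-like cells. Its day 2 ratio in loop of Henle-like cells was -0.997 (-1.72 to -0.24), from 24 and 43 UMIs, at the edge of a call and not called. Slc22a23 had 8 and 22 UMIs in the 41 sham and 57 reversed cells resembling the distal convoluted tubule, or 58.8 CPM (25.4 to 116) and 59.8 CPM (37.5 to 90.5). In proximal tubule-like cells it was at 35.7 CPM in sham, which lies within the first of these intervals, and at 31.9 after reversal. Those classes were small, with 41 to 285 cells per library for the collecting duct and distal convoluted tubule values given.

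**Figure D5:**
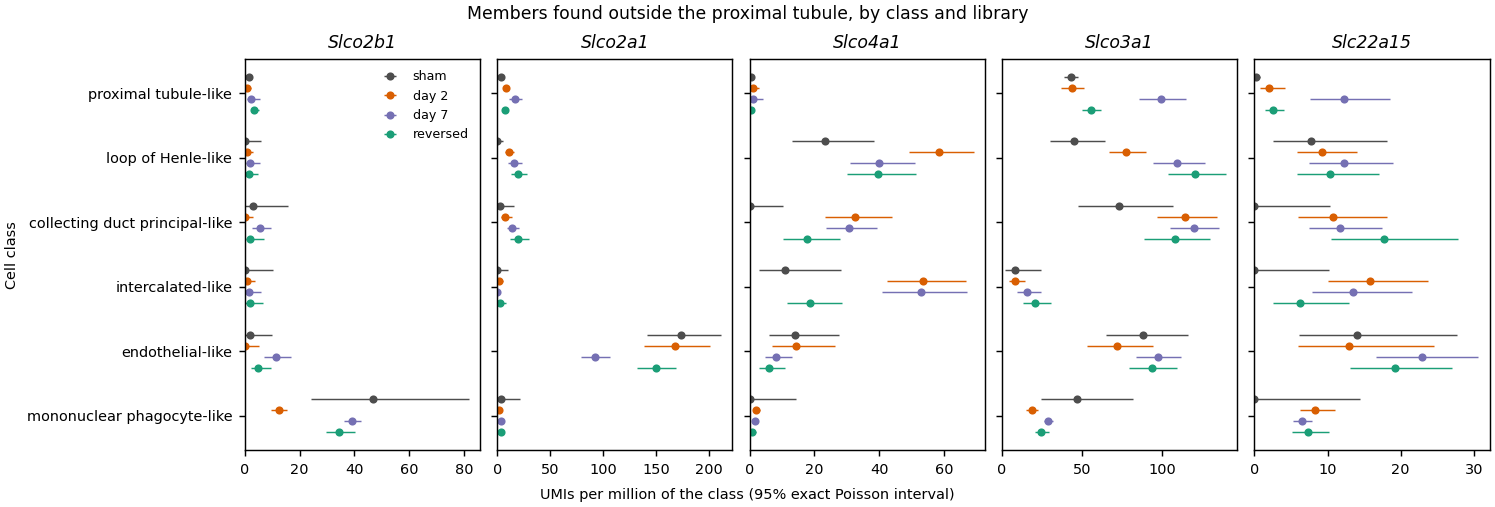
Level of 5 transporters (horizontal axes, CPM of the class, exact Poisson intervals) in 6 cell classes (vertical axis) and 4 libraries (colours). Of the classes drawn, Slco2b1 is highest in phagocyte-like and Slco2a1 in endothelial-like cells, and Slco4a1 is lowest in sham in the loop, collecting duct and intercalated classes.

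Some members were rare. Slco5a1 had 114 UMIs over the series (0, 3, 73 and 38 by library), and 65 of them fell in an unnamed cluster of 91 cells led by Ccl22, Fscn1 and Ccr7, genes of migrating dendritic cells, at 89.0 CPM (68.7 to 113). Slco4c1, an OATP known from the blood side of the kidney tubule, had 47 UMIs, and 46.2% of those in kept cells were in collecting duct principal-like cells. That share depends on class size and does not rank the classes by level. The 20 and 63 neutrophil-like cells of days 2 and 7 had 1 and 4 UMIs of it, or 13.2 and 13.9 CPM. Slc22a13, Slc22a19 and Slc22a26 had 53, 54 and 20 UMIs, 78.4% to 91.4% of those in kept cells in proximal tubule-like cells. Slc22a20, Slc22a14, Slco1c1 and Slco1a5 had 1 to 5 UMIs.

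In the Smart-seq2 wells, which carry read counts without molecular identifiers, 27 of the 34 transporters had a read. The wells held few tubule cells by markers: Csf1r, a phagocyte gene, had at least 10 reads in 78.8% of wells, and Slc34a1, a phosphate transporter of the proximal tubule, in 2.99%. Slco2b1 was found most widely, with at least 10 reads in 117 of 768 wells, 15.2% (12.8 to 18.0%, exact binomial interval), against 19 wells for Slco3a1 and 16 for Slc22a5. Reads were not scaled by gene length, so these counts of wells do not rank the genes by level. The wells have no map to time points, so no comparison was made.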

How the data were processed

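RNA of single kidney cells was measured in 4 droplet libraries and 1 Smart-seq2 sample. For the former the authors deposited unnormalized UMI counts, and for the latter unnormalized read counts of each well. Cell Ranger, STAR, GRCm38 and mm10 are named in the submitters' processing notes, without versions or roles, and droplets followed the 10x 3′ workflow per the labels' protocols. Raw reads were not used here.

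Cells were kept from 200 detected genes upward and up to 50% mitochondrial UMIs, and the highest Scrublet scores were removed at 0.8% per 1000 barcodes, since the automatic call marked 0 to 25 cells. Cells of all libraries were clustered together (scanpy 1.11.5, leidenalg 0.10.2, resolution 1, 15 neighbours, 2000 variable genes, 30 components), leaving out the transporters and both gate genes. The 32 clusters were named by markers, 4 staying unnamed. A name needed 5 enriched markers, or 3 with 2 among the 10 leading genes, a rule set after clusters were seen.

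UMIs were summed per library and class. Log2 ratios of CPM used a pseudocount of 1, which understates changes of low genes, with exact conditional binomial intervals at 95%. Genes needed 30 summed UMIs. The floor for 0 UMIs was 3 UMIs per library. Genes named are the members and those of the gene lists, and other genes name clusters. Members and lists were chosen with earlier results of these data known. The ratio step was tested on simulated data. TMM factors came from edgeR 4.0.16, and matplotlib 3.10.9 drew the figures. Promoters came from RefSeq and 3′ ends from the GENCODE annotation. Values of some genes and of 1 promoter motif are not reported here or drawn in the figures, and counts over all members include every member.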

Additional observations from a re-analysis of the deposited data

How the results depend on the processing

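No paired analysis was possible because each time point had 1 library, and for the same reason no replicate could be left out. Counts of called members in proximal tubule-like cells moved as follows. The shares of all genes given above belong to the main settings or to the gates, and are no background for the other counts. For day 2 against sham, the 5 called lower became 9 as CPM of non-mitochondrial UMIs, 10 with TMM factors, 8 with at most 20% mitochondrial UMIs, 2 with a pseudocount of 10 CPM, 3 with free RNA subtracted and 2 in Slc5a2-gated cells only. The 0 called higher became 2 with clusters at resolution 2 or free RNA subtracted, and 1 with every cell counted equally, with no minimum of summed UMIs or without the Fgg cluster. For day 7 against day 2, the 1 called lower became 0 with at most 20% mitochondrial UMIs, no doublet removal, resolution 2, thinning to 1000 UMIs, a pseudocount of 10 CPM or without the Fgg cluster, and 2 in Slc5a2-gated cells. That 1 is Slc22a29, whose ratio stayed past 2-fold in 11 of 12 alternatives, 5 of them with too few UMIs to be compared. The 3 called higher became 1 with TMM factors or thinning, 6 with no doublet removal, 10 with no minimum and 0 in Slc5a2-gated cells. For reversed against day 7, the 2 called lower became 1 as CPM of non-mitochondrial UMIs, with TMM factors, no doublet removal, every cell counted equally or in Slc5a2-gated cells, 0 with thinning or a pseudocount of 10 CPM, and 4 with no minimum. The 3 called higher became 5 as CPM of non-mitochondrial UMIs or with at most 20% mitochondrial UMIs, 8 with TMM factors, 1 with a pseudocount of 10 CPM and 9 in Slc5a2-gated cells. For reversed against sham, the 0 called lower became 1 with TMM factors and 2 with at most 20% mitochondrial UMIs, and the 0 called higher became 1 with no doublet removal or no minimum and 2 with free RNA subtracted. Between the gates, the 2 called lower became 0 with at most 20% mitochondrial UMIs, where Slc22a23 and Slc22a29 stayed past 2-fold with too few UMIs to be compared. Above the free-RNA level, the 7 in phagocyte-like cells became 12 with no minimum and 11 at 2 times the expected UMIs, and the 10 in endothelial-like cells became 6 with thinning. Stricter filters and thinning leave fewer UMIs, and the cause of the other moves was not tested.

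Values of called members changed sign in 6 cases. Over all 96 single values, called or not, 132 of 1152 alternatives did not keep the sign. With resolution 2, Slc22a22 was at 0.2637 and Slc22a28 at 0.3968 for day 2 against sham. Slc22a28 was at 0.0017 there without the Fgg cluster. Slc22a30 was at -0.0634 for day 7 against day 2 in Slc5a2-gated cells. Slc22a15 was at 1.2473 for reversed against day 7 with no doublet removal and 1.1757 with resolution 2. Of 300 alternatives to called single values, 257 stayed past 2-fold in the same direction and 241 also met the minimum of summed UMIs and kept the call. On day 2 against sham, Slco1a1 (-3.12 to -1.93) and Slc22a8 (-2.97 to -1.01) kept it in 12 of 12 alternatives, Slc22a7 in 8, Slc22a28 in 7 and Slc22a22 in 6. The Slc5a2-gated and Fgg alternatives were chosen after seeing the data. TMM factors moved the day 2 median of all genes from 0.29 to -0.07, so ratios are read against it. At resolution 2, 64 proximal tubule-like cells were left on day 2. The Slc7a13 gate of day 2 rests on 10 cells and the sham phagocyte-like class on 69, which limits what low counts there can show.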
